A study of Mus musculus with 16 samples.

Results

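The acute phase protein genes followed here are the 4 serum amyloid A genes Saa1, Saa2, Saa3 and Saa4, the orosomucoid genes Orm1 and Orm2, the haptoglobin gene Hp, the hemopexin gene Hpx, and the pentraxin genes Apcs and Crp. They were taken by name, and all 10 were found among the 55421 genes listed in every count table. The list was selected on the counts of these same libraries, with results known, so their levels, fold changes and calls below describe these libraries and are not an independent test of anything. RNA of C57BL/6 mice on a diet labelled HFD was sequenced in 16 libraries, with 2 libraries in each of 8 groups. In each of WAT and liver the groups were GPR132fl/fl on vehicle, GPR132fl/fl on NOX_6_18, Lyz2_cre+/_GPR132fl/fl on vehicle and Lyz2_cre+/_GPR132fl/fl on NOX_6_18. GPR132 is a G protein-coupled receptor and NOX_6_18 is its antagonist. The floxed allele alone is written fl/fl below, and the floxed allele with Cre is written CKO. In CKO, Cre is driven by the lysozyme gene Lyz2, which is active in myeloid cells, so other cells keep the receptor gene. For dose, duration of treatment, age and sex of the mice, the sources used here give nothing.

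The acute phase response is the change in plasma proteins that follows infection or injury. Interleukin-6 and its relatives, acting through STAT3, and interleukin-1 and TNF, acting through NF-kappa-B, act on hepatocytes together with factors of the C/EBP family. Hepatocytes then secrete more of the positive acute phase proteins and less of the negative ones, such as albumin. Serum amyloid A proteins travel on high-density lipoprotein, orosomucoids bind small lipophilic molecules, haptoglobin binds free hemoglobin, hemopexin binds free heme, and pentraxins bind microbial surfaces and cell debris. In the mouse, serum amyloid P component, the product of Apcs, is the classical acute phase pentraxin, while C-reactive protein responds little. Saa3 and Hp are also known to be expressed in adipose tissue, and Saa3 in macrophages.

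Libraries held 48348395 to 58396991 counts in WAT and 45624957 to 60761705 in liver. Genes with a count numbered 25039 and 25702 in WAT of fl/fl on vehicle and 30393 to 31289 in the other 6 WAT libraries. In liver they numbered 22051 to 23238. Levels are given as CPM, the usual counts scaled for library total and adjusted with the trimmed mean of M values (TMM). Mitochondrially encoded genes held 43.0 to 44.9% of liver counts and 2.31 to 3.61% of WAT counts. CPM values of the 2 tissues, each scaled within its tissue, are therefore not on a common scale. Whether the 2 libraries of each group stem from different mice is not stated, so each p-value rests on a spread that may be technical. The fl/fl vehicle pair stood apart from the other 6 libraries in WAT and in liver. WAT libraries of fl/fl on vehicle received TMM factors of 0.913 and 0.921, and the others 1.03. Gpr132, the targeted gene, was at 69.7 to 72.5 CPM in WAT of fl/fl on vehicle, 60.1 to 60.3 CPM in fl/fl on NOX_6_18, 35.6 and 64.6 CPM in CKO on vehicle and 56.5 to 59.1 CPM in CKO on NOX_6_18. In liver it was at 4.04 to 4.26, 1.64 to 2.13, 1.46 to 1.86 and 2.41 to 2.81 CPM in that order, so its level did not set CKO apart from fl/fl on NOX_6_18 in either tissue. The counts cover the whole gene, so the deleted part could not be read, and CKO below means the libraries labelled so. The labels describe the RNA as that of macrophages, with the tissue itself placed in liquid nitrogen. The 12 macrophage markers summed to 8018 to 11972 CPM in WAT, where 8 fibroblast markers summed to 11440 to 22085 CPM. In liver, 12 macrophage markers summed to 2844 to 3107 CPM, 14 hepatocyte markers to 2907 to 3328 CPM and 6 endothelial markers to 4425 to 5050 CPM. Transcripts of other cell types were therefore present in both tissues, and in such bulk RNA fewer cells of a type and less RNA per cell cannot be told apart.

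In liver, 9 of the 10 genes differed between fl/fl on NOX_6_18 and fl/fl on vehicle, 8 of them higher on NOX_6_18 and Saa3 lower. Saa2 differed most, 39.0-fold, followed by Saa1, 16.7-fold, and Orm2, 7.93-fold, while Crp was not called. A gene is said to be called, or to have risen or fallen, where the quasi-likelihood test of edgeR gave a Benjamini-Hochberg adjusted p under 0.05 over all genes tested. The same rule called 5.52% of the 19515 liver genes, 3.78% higher and 1.74% lower. The median log2 fold change of the 10 genes was 1.31, against 0.00 over all liver genes. In CKO against fl/fl on vehicle the count was again 9 of 10, with 8 higher and Saa3 lower, where 5.8% of liver genes were called, 3.96% higher and 1.83% lower. These 2 comparisons share the fl/fl vehicle libraries, so they are not independent of each other.

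Saa1 and Saa2 encode the serum amyloid A proteins that the liver secretes. Saa1 stood at 2.75 and 1.70 CPM in the fl/fl vehicle libraries of liver, at 35.5 and 40.0 CPM in fl/fl on NOX_6_18, at 43.0 and 36.7 CPM in CKO on vehicle, and at 35.3 and 37.4 CPM in CKO on NOX_6_18. Saa2 stood at 1.11 and 0.971 CPM, 38.8 and 43.0 CPM, 42.5 and 43.6 CPM, and 40.2 and 39.9 CPM in the same order. Both fl/fl vehicle libraries were low for both genes, and the other 6 libraries lay far above them without separating by genotype or treatment. For Saa1 the log2 fold change was 4.06 ± 0.20 (SE) for NOX_6_18 in fl/fl and 4.14 ± 0.20 for CKO on vehicle. For Saa2 it was 5.28 ± 0.11 and 5.36 ± 0.11.

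The promoters of these genes are shown because Saa1 and Saa2 moved together and Saa3 moved the other way in liver, and that of Orm2 because it holds a pair of motif matches. Each line gives the 200 bases from 250 to 51 bases before the start used by RefSeq promoters on GRCm38.p6, read on the gene's strand. For Saa2 and Saa3 this start lies inside the gene limits given below, so distances to it are not distances to those limits. The stretches lie at chr7:46743031-46743230 (minus strand) for Saa1, chr7:46751583-46751782 (plus strand) for Saa2, chr7:46715727-46715926 (minus strand) for Saa3 and chr4:63362199-63362398 (plus strand) for Orm2. Capitals mark matches to TTGNGNAA on either strand, a common form of the C/EBP binding motif.
Saa1: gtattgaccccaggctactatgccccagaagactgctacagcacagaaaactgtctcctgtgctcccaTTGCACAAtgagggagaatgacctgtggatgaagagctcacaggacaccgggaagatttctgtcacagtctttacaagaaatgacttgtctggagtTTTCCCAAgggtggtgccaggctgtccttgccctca
Saa2: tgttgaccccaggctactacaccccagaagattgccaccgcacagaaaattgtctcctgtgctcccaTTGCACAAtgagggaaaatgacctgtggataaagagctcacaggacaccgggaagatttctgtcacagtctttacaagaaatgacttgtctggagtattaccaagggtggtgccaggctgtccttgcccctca
Saa3: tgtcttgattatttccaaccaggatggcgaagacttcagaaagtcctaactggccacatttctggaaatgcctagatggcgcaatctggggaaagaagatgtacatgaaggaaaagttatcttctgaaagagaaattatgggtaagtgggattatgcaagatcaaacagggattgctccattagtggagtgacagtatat
Orm2: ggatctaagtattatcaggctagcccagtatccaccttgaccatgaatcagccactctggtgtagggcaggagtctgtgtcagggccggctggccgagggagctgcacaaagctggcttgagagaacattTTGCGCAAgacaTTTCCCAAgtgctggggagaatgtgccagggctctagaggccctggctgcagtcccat

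Over 249 aligned promoter bases Saa1 and Saa2 were 95.6% identical, while Saa3 shared 59.4% with Saa1 over 224 aligned bases and 62.5% with Saa2 over 216. The motif search covered 250 bases before to 50 bases after the same RefSeq start. TTGNGNAA began 182 and 86 bases before the start of Saa1, 183 before Saa2, 52 before Saa4, 120 and 108 before Orm2, and 73 before Hpx, and it was in none of the windows of Saa3, Apcs and Crp. It occurred in 11.7% of all 32851 promoters of that length. The printed Saa3 stretch holds ttatgcaa, which has A in place of the first G of TTGNGNAA. TTCNNNGAA, a form of the STAT motif, was found at Apcs alone among the 8 genes with a promoter entry, 244 bases before the start, and in 7.02% of promoters. A 10-letter form of the NF-kappa-B motif was found at 0 of these 8 genes and in 4.11% of promoters. All patterns were searched on both strands. A match describes letters only, and a missing match concerns the pattern searched, not every form of the motif.

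Saa3 went against its relatives in liver. It stood at 5.90 and 5.43 CPM in the fl/fl vehicle libraries, 2.23 and 1.46 CPM in fl/fl on NOX_6_18, 2.29 and 1.89 CPM in CKO on vehicle, and 1.77 and 2.45 CPM in CKO on NOX_6_18. Both fl/fl vehicle libraries were above all 6 others. The log2 fold change was −1.61 ± 0.27 for NOX_6_18 in fl/fl and −1.43 ± 0.27 for CKO on vehicle. Without fl/fl vehicle replicate 1 or fl/fl NOX_6_18 replicate 2 the first was no longer called, and without any 1 of its 4 own libraries the second was not. Saa4, an amyloid A protein made at a steady level by the liver, stood at 5.70 and 7.24 CPM in the fl/fl vehicle libraries, 13.9 and 16.1 CPM in fl/fl on NOX_6_18, 14.5 and 14.3 CPM in CKO on vehicle, and 15.4 and 16.9 CPM in CKO on NOX_6_18. Its fl/fl vehicle libraries did not overlap the other 6. It rose by 1.22 ± 0.15 on the log2 scale for NOX_6_18 in fl/fl and by 1.16 ± 0.15 for CKO on vehicle.

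The makeup of the Saa transcripts in liver changed with these levels. Saa3 held 38.2 and 35.4% of the counts of the 4 Saa genes in the fl/fl vehicle libraries and 1.46 to 2.54% in the other 6. Within the pair of near copies, Saa1 held 71.2% of the counts of Saa1 and Saa2 in fl/fl vehicle replicate 1 (95% exact binomial interval 64.9 to 77.0%) and 63.6% in replicate 2 (54.4 to 72.2%). In the other 6 libraries it held 45.7 to 50.3%. The intervals of the fl/fl vehicle libraries lay above those 6 values, and they cover counting error only, since reads without molecular identifiers are not independent molecules.

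**Figure D1:**
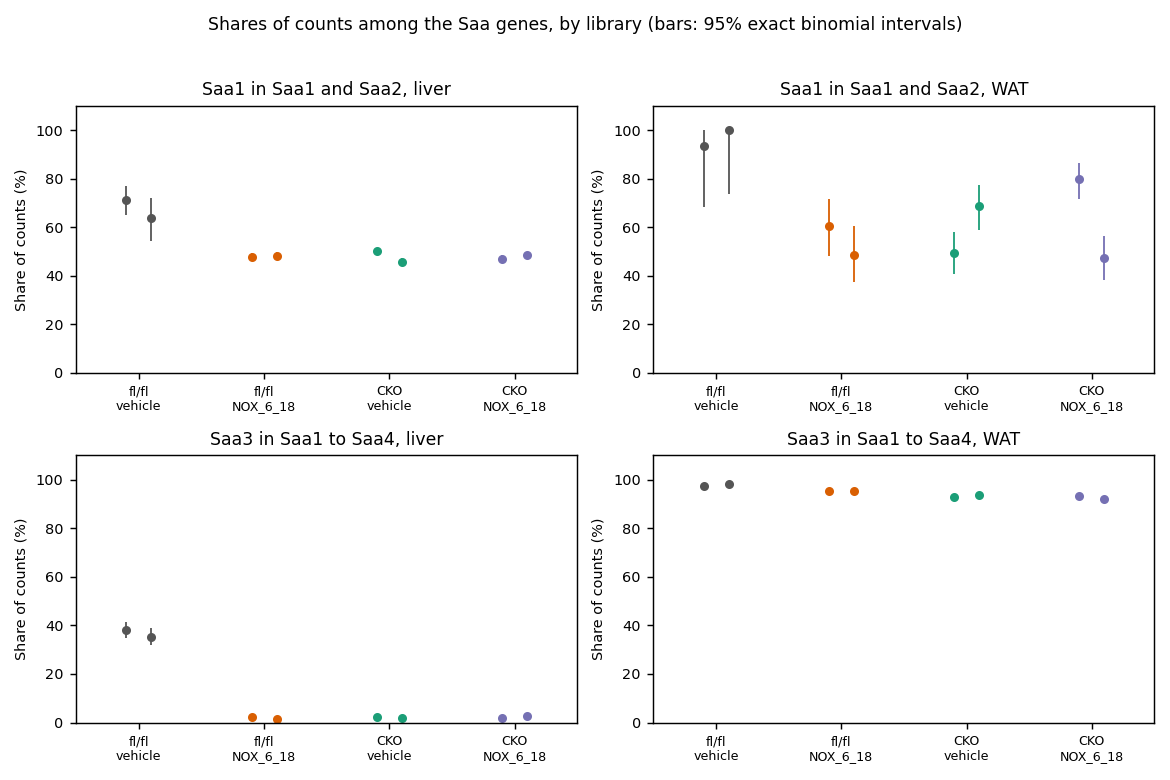
Share of counts (%) of Saa1 within Saa1 and Saa2 (top) and of Saa3 within Saa1 to Saa4 (bottom) in liver (left) and WAT (right), by group. Points are libraries and bars are 95% exact binomial intervals. In liver the Saa3 share lies at 35.4 and 38.2% in fl/fl on vehicle and at 1.46 to 2.54% elsewhere, while in WAT it lies above 91% in every library.

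Orm1 and Orm2 encode orosomucoid, also called alpha-1-acid glycoprotein. Orm1 stood at 11.4 and 9.58 CPM in the fl/fl vehicle libraries of liver, 42.1 and 39.9 CPM in fl/fl on NOX_6_18, 40.8 and 39.7 CPM in CKO on vehicle, and 38.1 and 42.8 CPM in CKO on NOX_6_18. Orm2 stood at 0.445 and 1.04 CPM, 7.48 and 4.02 CPM, 6.78 and 5.56 CPM, and 8.39 and 5.83 CPM in the same order of groups. For both genes the fl/fl vehicle libraries lay below all others. Orm1 rose by 1.96 ± 0.10 on the log2 scale for NOX_6_18 in fl/fl and by 1.94 ± 0.10 for CKO on vehicle. Orm2 rose by 2.99 ± 0.44 and 3.09 ± 0.44, with 26 and 47 counts in its fl/fl vehicle libraries. Without fl/fl vehicle replicate 2 these were 3.69 and 3.79. The near copy Orm3 held between 0 and 27 counts per liver library and was not called.

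Hp, whose product carries free hemoglobin to the scavenger receptor CD163, and Hpx, whose product carries free heme, were the most abundant of the 10 per kilobase in liver. Hp stood at 92.1 and 93.3 CPM in the fl/fl vehicle libraries, 248 and 246 CPM in fl/fl on NOX_6_18, 259 and 250 CPM in CKO on vehicle, and 246 and 251 CPM in CKO on NOX_6_18. Hpx stood at 104 and 105 CPM, 219 and 222 CPM, 230 and 215 CPM, and 217 and 220 CPM. Replicates differed by far less than the step between fl/fl on vehicle and the rest. Hp rose by 1.42 ± 0.05 on the log2 scale for NOX_6_18 in fl/fl and by 1.46 ± 0.05 for CKO on vehicle, and Hpx by 1.08 ± 0.05 and 1.09 ± 0.05.

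The pentraxins parted in liver. Apcs stood at 2.26 and 1.46 CPM in the fl/fl vehicle libraries, 4.13 and 4.02 CPM in fl/fl on NOX_6_18, 4.10 and 4.94 CPM in CKO on vehicle, and 5.03 and 4.00 CPM in CKO on NOX_6_18. Crp stood at 19.1 and 16.4 CPM, 16.7 and 19.7 CPM, 18.9 and 20.9 CPM, and 19.8 and 16.8 CPM, so that its groups overlapped throughout. Apcs rose by 1.13 ± 0.25 on the log2 scale for NOX_6_18 in fl/fl and by 1.27 ± 0.25 for CKO on vehicle. The first call was lost without any 1 library other than fl/fl vehicle replicate 1, with values from 0.85 to 1.48 over the 8 fits, and also by limma-voom, with the replicate block, after removal of the GC and length trend and with only the groups compared. The second was lost with only the groups compared, and without fl/fl vehicle replicate 2 or either CKO vehicle library, with values from 1.00 to 1.63. Crp had a log2 fold change of 0.03 for NOX_6_18 in fl/fl (95% interval −0.28 to 0.34) and 0.16 for CKO on vehicle (−0.15 to 0.47).

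**Figure D2:**
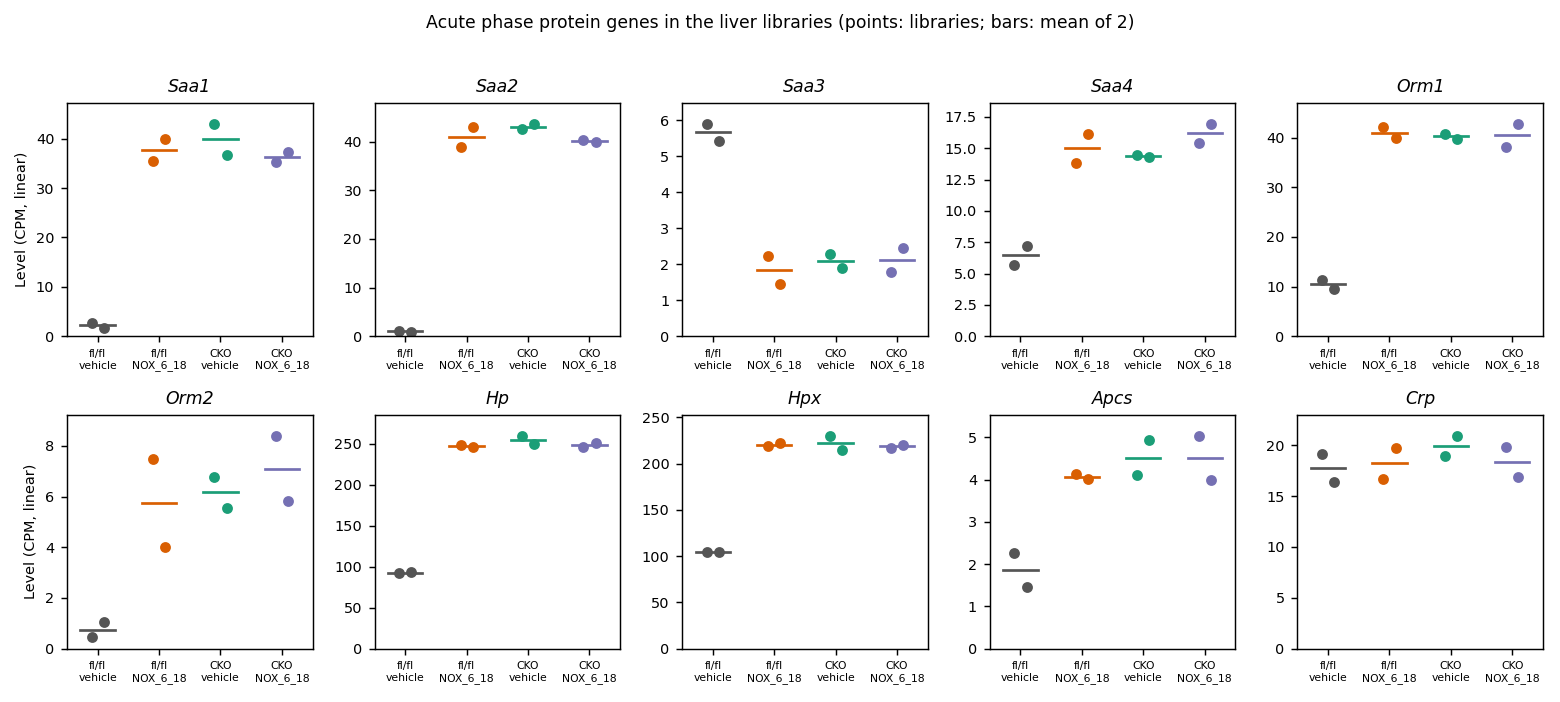
Level of each gene (CPM, linear axis from 0) in the 8 liver libraries by group. Points are libraries and bars are the mean of 2. Saa1, Saa2, Saa4, Orm1, Orm2, Hp, Hpx and Apcs lie lower in fl/fl on vehicle than in the other 3 groups, Saa3 lies higher, and Crp lies between 16.4 and 20.9 CPM throughout.

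The order of the genes by level per kilobase of spliced transcript differed between the liver groups. In fl/fl on vehicle Hpx and Hp led, at 69.7 ± 0.19 and 68.9 ± 0.64 CPM per kb (SD, n = 2), close to each other. Orm1 followed at 13.5 ± 1.67, then Crp at 10.5 ± 1.12 and Saa3 at 10.2 ± 0.60, which did not differ beyond their spread. Saa1 at 3.66 ± 1.22, Saa4 at 3.09 ± 0.52, Apcs at 1.91 ± 0.58, Saa2 at 1.72 ± 0.17 and Orm2 at 0.956 ± 0.54 CPM per kb closed the order. In CKO on NOX_6_18 Hp led at 185 ± 2.54 CPM per kb, ahead of Hpx at 146 ± 1.63. Saa2 at 66.1 ± 0.32, Saa1 at 59.7 ± 2.38 and Orm1 at 52.2 ± 4.22 CPM per kb came next. Crp at 10.8 ± 1.22 and Orm2 at 9.17 ± 2.33 overlapped, and Saa4 at 7.72 ± 0.52, Apcs at 4.65 ± 0.75 and Saa3 at 3.81 ± 0.87 CPM per kb were lowest. Saa2 thus moved from the ninth to the third place and Saa3 from the fifth to the tenth.

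Across the 8 liver libraries the log2 levels of Saa1, Saa2, Orm1, Hp and Hpx ran nearly in parallel, with Pearson r from 0.994 to 0.999 between pairs of them. Saa3 ran against the other 9, with r from −0.949 to −0.439. Crp had r of at most 0.504 with any other. These r values describe 8 libraries that fall into the fl/fl vehicle pair and the rest.

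In liver CKO, NOX_6_18 against vehicle gave 0 called of 10 by edgeR, 0 at an unadjusted p under 0.05, and 0 by DESeq2 and limma-voom, with 0.0359% of liver genes called, 0.0256% higher and 0.0102% lower. The 95% interval of the log2 fold change was −0.51 to 0.25 for Saa1, −0.29 to 0.09 for Saa2, −0.61 to 0.64 for Saa3, −0.22 to 0.23 for Orm1, −0.66 to 1.06 for Orm2, −0.14 to 0.07 for Hp and −0.14 to 0.09 for Hpx. The log2 fold changes measured in fl/fl lie outside these intervals for each of these 7 genes. CKO against fl/fl on NOX_6_18 also gave 0 called of 10, 0 at an unadjusted p under 0.05 and 0 by DESeq2 and limma-voom, again with 0.0359% of liver genes called, 0.0256% higher and 0.0102% lower. Its intervals were −0.43 to 0.33 for Saa1, −0.22 to 0.16 for Saa2, −0.09 to 0.11 for Hp, −0.13 to 0.10 for Hpx and −0.40 to 0.70 for Apcs. The response to NOX_6_18 differed between the genotypes for 7 of the 10 liver genes (Saa1, Saa2, Saa4, Orm1, Orm2, Hp and Hpx), all of them weaker in CKO, where 2.45% of liver genes had a called interaction, 0.584% higher and 1.87% lower. Every such difference uses the fl/fl vehicle libraries. The call for Orm2 was lost without any 1 library other than replicate 2 of fl/fl on vehicle or on NOX_6_18, and that for Saa4 without any 1 library other than fl/fl vehicle replicate 2. The Saa4 difference ran from −1.23 to −0.88 over the 8 fits that leave 1 library out. The Orm2 call was also lost with library totals only, by limma-voom, with the replicate block, after removal of the GC and length trend and with all 16 libraries in the fit (−2.96 to −2.58, adjusted p = 0.0523 to 0.104). The Saa4 call was lost after removal of that trend and with all 16 libraries (−0.96 and −1.06, adjusted p = 0.0532 and 0.505). Saa3 was not called in liver by edgeR within the tissue, but was by DESeq2 and with all 16 libraries (1.62 and 1.60, adjusted p = 0.0366 and 0.0121). Without fl/fl vehicle replicate 2 the Orm2 difference was −3.49 instead of −2.79 on the log2 scale.

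**Figure D3:**
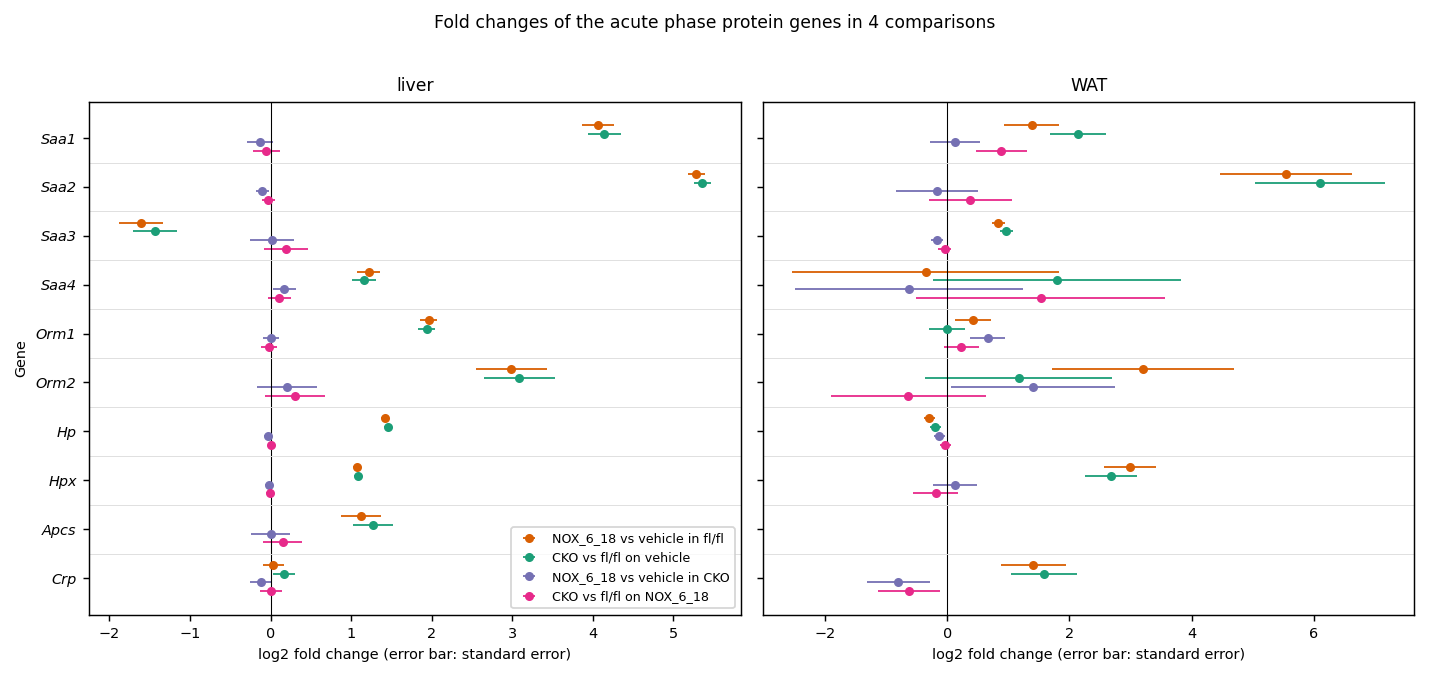
log2 fold change of each gene in liver (left) and WAT (right) in 4 comparisons, with standard errors as bars. In liver the comparisons against fl/fl on vehicle lie away from 0 for 9 genes and the other comparisons lie near 0. In WAT, Saa2, Saa4 and Orm2 rest on few counts, Apcs was not tested, and the Saa3 and Orm1 values turn to −0.011 and −1.02 for NOX_6_18 in fl/fl after removal of the GC and length trend with recentring.

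Read assignment among near copies bears on Saa1, Saa2, Orm1 and Orm2. On GRCm38 the Saa genes lie side by side on chromosome 7: Saa3 (ENSMUSG00000040026) at 46711998 to 46715700, Saa4 (ENSMUSG00000040017) at 46727998 to 46732603 and Saa1 (ENSMUSG00000074115) at 46740497 to 46742980, all on the minus strand, and Saa2 (ENSMUSG00000057465) at 46751790 to 46754313 on the plus strand. Orm1 (ENSMUSG00000039196), Orm3 and Orm2 (ENSMUSG00000061540) lie in that order on the plus strand of chromosome 4, from 63344560 to 63365878. Hpx (ENSMUSG00000030895) is on chromosome 7 at 105591613 to 105600137, Hp (ENSMUSG00000031722) on chromosome 8 at 109575128 to 109579172, Crp (ENSMUSG00000037942) on chromosome 1 at 172698055 to 172833031 and Apcs (ENSMUSG00000026542) on chromosome 1 at 172893961 to 172895041. All are annotated as protein-coding, and no exon of the 10 overlaps an exon of another gene. The spliced transcripts of Saa1 and Saa2 are 94.4% identical and those of Orm1 and Orm2 91.0%, while Saa3 shares 74.0% with Saa1 and Apcs 62.9% with Crp.

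Of the 50-base windows of the Saa1 transcript, 14.8% occur word for word in the Saa2 or Saa3 transcript, and of those of Saa2, 13.3% occur in Saa1. The share was 20.4% for Orm1 and 22.7% for Orm2, 1.78% for Saa3 and 0% for Hp, Hpx and Apcs. Of 100-base windows, 0% were shared for the Saa genes and 6.95% for Orm1 and Orm2. The sources used here do not say how the counting treated reads that fit more than 1 gene, so the split between copies is less certain than their sum. With Saa1 and Saa2 summed, the liver log2 fold change was 4.57 for NOX_6_18 in fl/fl and 4.65 for CKO on vehicle. With Orm1, Orm2 and Orm3 summed it was 2.05 and 2.04. All 4 sums were called. The pseudogene Saa-ps, looked up after the values were seen, had 8 counts in 1 WAT library and 0 in the other 15.

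In WAT, 5 of the 9 tested genes were called for NOX_6_18 in fl/fl: Saa1, Saa2, Saa3 and Hpx were higher, and Hp was lower by a small amount. The background was large, with 37.8% of the 25871 WAT genes called, 24.6% higher and 13.2% lower. In CKO against fl/fl on vehicle, 5 of 9 were called, all higher (Saa1, Saa2, Saa3, Hpx and Crp), where 36.8% of WAT genes were called, 24.4% higher and 12.4% lower. The median log2 fold change of the 9 was 1.38 and 1.58, against 0.12 and 0.10 over all WAT genes. Apcs had at most 9 counts in any WAT library and was not tested. The number called for NOX_6_18 in fl/fl fell to 3 without any 1 of 6 WAT libraries, namely fl/fl vehicle replicate 1, both fl/fl NOX_6_18, both CKO vehicle and CKO NOX_6_18 replicate 1.

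These WAT values depend on how libraries are scaled. After removal of the GC and length trend with recentring, an alternative chosen after seeing the data, the median of all WAT genes moved by −0.47 for NOX_6_18 in fl/fl and by −0.46 for CKO on vehicle, and each gene below includes that shift. Of the called genes, 32.75% were then higher for NOX_6_18 in fl/fl, against 65.14% as analysed and 82.58% with library totals only. For CKO on vehicle these shares were 32.62%, 66.25% and 83.49%.

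Saa3, which is known from adipose tissue and macrophages, was the leading serum amyloid A transcript of WAT per kilobase. It stood at 16.9 and 14.6 CPM in the fl/fl vehicle libraries, 27.2 and 29.2 CPM in fl/fl on NOX_6_18, 31.7 and 29.9 CPM in CKO on vehicle, and 27.9 and 27.1 CPM in CKO on NOX_6_18. The fl/fl vehicle libraries lay below the other 6. On the log2 scale the change was 0.84 ± 0.11 for NOX_6_18 in fl/fl and 0.97 ± 0.11 for CKO on vehicle, but −0.011 and 0.08, neither called, after removal of the GC and length trend with recentring. Saa3 held 97.5 and 98.4% of the counts of the 4 Saa genes in fl/fl on vehicle and 91.9 to 95.5% in the other 6 libraries.

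Saa1 and Saa2 were low in WAT. Saa1 stood at 0.317 and 0.236 CPM in the fl/fl vehicle libraries, 0.812 and 0.633 CPM in fl/fl on NOX_6_18, 1.11 and 1.34 CPM in CKO on vehicle, and 1.65 and 1.03 CPM in CKO on NOX_6_18, which came from 12 to 98 counts per library. Saa2 had 1 and 0 counts in fl/fl on vehicle, 29 and 40 in fl/fl on NOX_6_18, 68 and 32 in CKO on vehicle, and 25 and 67 in CKO on NOX_6_18. Both genes were lowest in the fl/fl vehicle libraries, and their replicates spread widely in the other groups. Saa1 had a log2 fold change of 1.38 ± 0.45 for NOX_6_18 in fl/fl and 2.14 ± 0.45 for CKO on vehicle. The first was 0.75 and not called after removal of that trend, nor was it called by DESeq2 or limma-voom, with no filter, with the replicate block, with only the groups compared or without any 1 library other than CKO NOX_6_18 replicate 2. The Saa1 value ran from 1.18 to 1.60 over the 8 fits that leave 1 library out. For Saa2 the ratio of summed levels was 57.4 for NOX_6_18 in fl/fl (95% counting interval 9.96 to 2.3e+03) and 85 for CKO on vehicle (14.9 to 3.39e+03). The Saa2 call for NOX_6_18 in fl/fl was lost by limma-voom (adjusted p = 0.0626). The Saa1 share of the 2 copies in WAT was 93.3 and 100% in fl/fl on vehicle, from 15 and 12 counts, and 47.2 to 79.7% elsewhere. Saa4 had at most 12 counts in any WAT library.

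Orm1 stood at 1.34 and 1.18 CPM in WAT of fl/fl on vehicle, 1.84 and 1.53 CPM in fl/fl on NOX_6_18, 1.26 and 1.25 CPM in CKO on vehicle, and 2.20 and 1.76 CPM in CKO on NOX_6_18. Its CKO vehicle libraries overlapped the fl/fl vehicle libraries. The log2 fold change was 0.42 for NOX_6_18 in fl/fl and −0.0053 for CKO on vehicle, neither called, but −1.02 and −1.50, both called, after removal of that trend. Orm2 had 0 and 3 counts in fl/fl on vehicle and 3 to 22 in the other 6 libraries and was not called.

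Hp, with Saa3, was above the other genes of the family in WAT per kilobase. It stood at 46.8 and 40.9 CPM in the fl/fl vehicle libraries, 35.8 and 35.8 CPM in fl/fl on NOX_6_18, 38.9 and 37.6 CPM in CKO on vehicle, and 34.6 and 35.5 CPM in CKO on NOX_6_18. The fl/fl vehicle libraries were the highest, in contrast to liver. The log2 fold change was −0.29 ± 0.09 for NOX_6_18 in fl/fl and −0.20 ± 0.09 for CKO on vehicle, of which only the first was called. It was −0.13 and not called with library totals only, and −1.20 after removal of that trend, where CKO on vehicle was −1.15 and called. The call for NOX_6_18 in fl/fl was also lost with no filter, with only the groups compared and without any 1 library other than fl/fl vehicle replicate 2, with values from −0.38 to −0.19 over the 8 fits.

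Hpx moved in WAT in the direction it took in liver. It stood at 0.272 and 0.197 CPM in the fl/fl vehicle libraries, 1.51 and 2.23 CPM in fl/fl on NOX_6_18, 1.33 and 1.69 CPM in CKO on vehicle, and 1.95 and 1.33 CPM in CKO on NOX_6_18. The log2 fold change was 2.99 ± 0.42 for NOX_6_18 in fl/fl and 2.68 ± 0.42 for CKO on vehicle, and 1.89 and 1.53 after removal of that trend, called in each case. Crp stood at 0.181 and 0.472 CPM, 0.959 and 0.799 CPM, 0.874 and 1.11 CPM, and 0.589 and 0.548 CPM in the same order of groups. Its log2 fold change was 1.41 ± 0.54 for NOX_6_18 in fl/fl, not called, and 1.58 ± 0.54 for CKO on vehicle, a call lost without any 1 library other than fl/fl vehicle replicate 2. The value ran from 1.07 to 2.44 over the 8 fits, highest without that library. This Crp call was lost too after removal of the trend (0.87, adjusted p = 0.202), with upper-quartile scaling, with no filter, by limma-voom, with the replicate block and with only the groups compared.

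**Figure D4:**
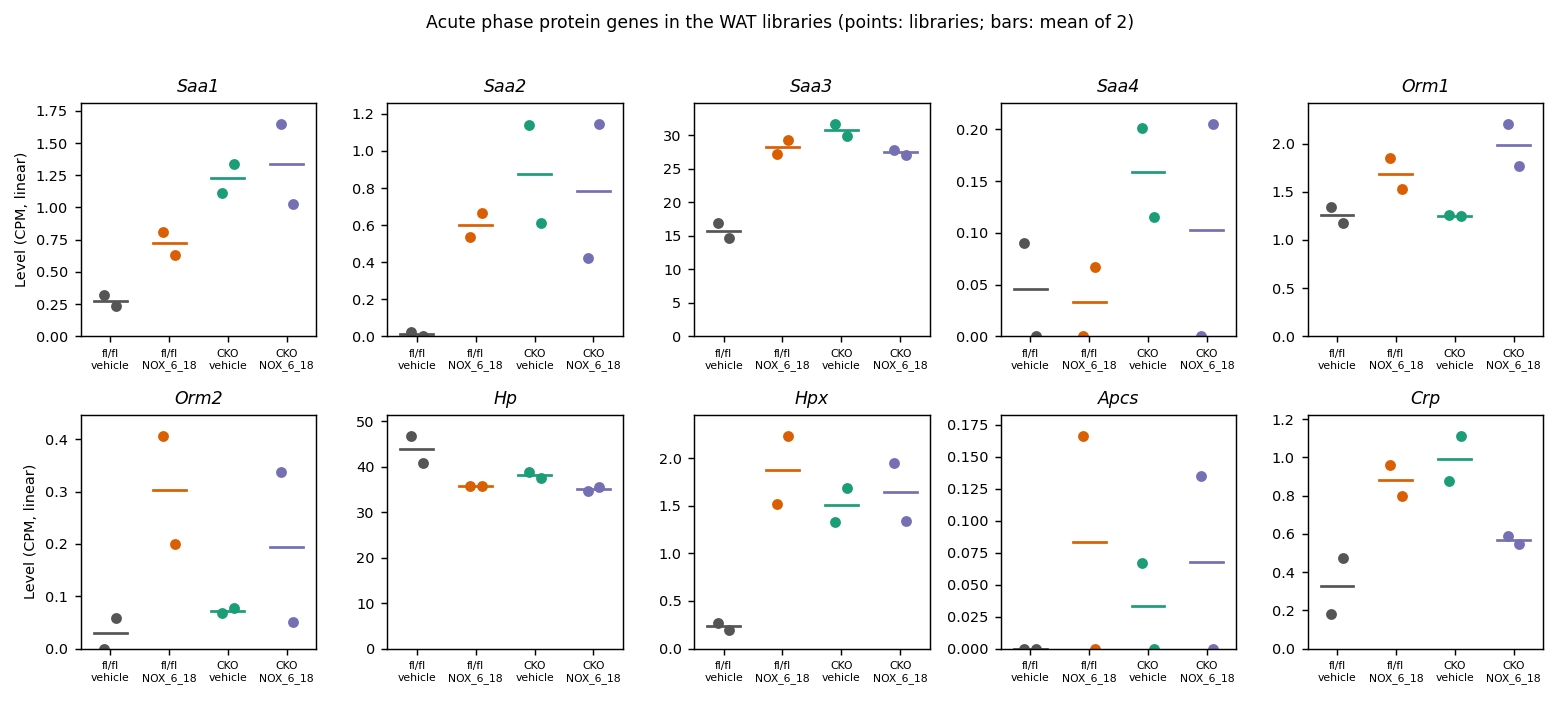
Level of each gene (CPM, linear axis from 0) in the 8 WAT libraries by group. Points are libraries and bars are the mean of 2. Saa3 lies at 14.6 to 16.9 CPM in fl/fl on vehicle and at 27.1 to 31.7 CPM elsewhere, a gap that is lost after removal of the GC and length trend with recentring, and Hp lies highest in fl/fl on vehicle.

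Markers of other cells moved with these WAT levels. The 14 hepatocyte markers summed to 32.7 and 34.4 CPM in the fl/fl vehicle libraries and to 78.8 to 88.1 CPM in the other 6, and none was at 0 in all 8 libraries. Alb, the albumin gene, stood at 4.94 to 5.50 CPM in fl/fl on vehicle and at 28.2 to 33.4 CPM elsewhere, and Apoh at 0 and at 2.45 to 4.23 CPM. In these same fl/fl vehicle libraries the 8 testis germ cell markers summed to 19.4 and 23.7 CPM against 741.8 to 816.2 CPM elsewhere. The 8 epididymal and mammary epithelium markers summed to 373.8 to 417.1 against 1015 to 1109 CPM, the 12 neutrophil markers to 54.7 to 59.3 against 85 to 93.1 CPM, and the 12 macrophage markers to 11050 to 11972 against 8018 to 8354 CPM. The neutrophil markers did not move as 1: Csf3r went the other way, at 28.3 to 28.9 against 19.6 to 25.2 CPM. Camp, Ly6g, Cxcr2 and Mpo overlapped between these libraries. Of the macrophage markers, Mertk, Itgam and Cd14 overlapped too, and the others were highest in fl/fl on vehicle. Mertk leaned the other way, at 86.1 to 99.2 against 97.6 to 116 CPM. The 8 fibroblast markers summed to 21529 to 22085 against 11440 to 11808 CPM, with 0 higher and 7 lower for NOX_6_18 in fl/fl. The 6 endothelial markers summed to 1646 to 1678 against 1145 to 1211 CPM, with 0 higher and 5 lower. Most of the sum of the 10 adipocyte markers was Fabp4, at 1980 to 2190 CPM against 1230 to 1400 CPM elsewhere. Plin1, Lep and Pparg also lay lower elsewhere, while Adipoq, Cfd, Cidec, Retn, Lipe and Plin4 lay higher. The sum was 2195 to 2423 against 1472 to 1642 CPM, although 5 of the 10 were called higher and 3 lower. Beside these counts, 24.6% of all WAT genes were called higher and 13.2% lower for NOX_6_18 in fl/fl. Such splits depend on the scaling, as given above. The part of the marker transcripts in the WAT results of Saa1, Saa2, Saa3, Hp, Hpx and Crp was not tested.

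In WAT per kilobase, Hp at 32.6 ± 3.08 CPM per kb (SD, n = 2) and Saa3 at 28.4 ± 2.91 overlapped in fl/fl on vehicle, whereas Saa3 at 49.5 ± 1.03 was above Hp at 26.1 ± 0.46 in CKO on NOX_6_18. Orm1 came next, at 1.62 ± 0.14 and 2.56 ± 0.40 CPM per kb in these groups, and its level overlapped that of Saa1, 2.20 ± 0.72, in the latter.

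In WAT of CKO, NOX_6_18 against vehicle gave 0 called of 9 by edgeR, 0 at an unadjusted p under 0.05 and 0 by DESeq2 and limma-voom, with 0.0155% of WAT genes called, 0.00387% higher and 0.0116% lower. The 95% interval of the log2 fold change was −0.41 to 0.07 for Saa3, −0.81 to 1.07 for Saa1, −0.33 to 0.08 for Hp and −0.71 to 0.97 for Hpx. For Orm1 the log2 fold change was 0.66, with an interval of −0.0012 to 1.325 that barely reached 0. CKO against fl/fl on NOX_6_18 likewise gave 0 called of 9, 0 at an unadjusted p under 0.05 and 0 by DESeq2 and limma-voom, with 0.0348% of WAT genes called, 0.0155% higher and 0.0193% lower. Its intervals were −0.28 to 0.20 for Saa3, −0.07 to 1.85 for Saa1, −0.24 to 0.18 for Hp and −1.02 to 0.65 for Hpx. The response to NOX_6_18 differed between the genotypes for 3 of the 9 (Saa2, Saa3 and Hpx), all weaker in CKO, where 25.3% of WAT genes had a called interaction, 6.71% higher and 18.6% lower. For Saa3 this difference was −1.01, and it was −0.12 and not called after removal of that trend, where Orm1 and Hp were called higher in CKO (1.72 and 1.11). The Saa2 call was lost by limma-voom (−5.36, adjusted p = 0.0766). Crp, at −2.21, was not called, but was with a filter of 50 counts, by limma-voom, with all 16 libraries and without fl/fl vehicle replicate 2.

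WAT and liver differed in the effect of NOX_6_18 in fl/fl for 6 of the 10 genes, 3 higher and 3 lower in WAT, where 14.7% of the 26751 genes fitted over both tissues were called, 7.52% higher and 7.2% lower. The log2 fold change in WAT was below that in liver for Saa1 (−2.68 ± 0.47), Orm1 (−1.54 ± 0.20) and Hp (−1.70 ± 0.08) on the log2 scale. It was above that in liver for Saa3 (2.45 ± 0.28), Hpx (1.93 ± 0.32) and Crp (1.35 ± 0.38). After removal of that trend, the Crp difference was 0.93 and not called, and the other 5 were called in the same direction. The Crp call was also lost by limma-voom, with the replicate block, with only the groups compared, without replicate 1 of fl/fl on vehicle or on NOX_6_18 in either tissue, or without WAT fl/fl NOX_6_18 replicate 2. The Crp value was 0.85 without WAT fl/fl vehicle replicate 1 and 2.21 without replicate 2. For Saa2 the difference was 0.19, with a 95% interval of −1.18 to 1.55.

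Other acute phase genes were read from a list of 20 positive and 8 negative ones. For NOX_6_18 in fl/fl, 3.78% of all liver genes were called higher and 1.74% lower. For CKO on vehicle these shares were 3.96% and 1.83%. They apply to each liver list below, marker lists included. In liver, 11 of the 20 positive genes rose and 1 fell for NOX_6_18 in fl/fl, with a median log2 fold change of 0.77. Among them were Fgl1, a hepatocyte-secreted fibrinogen-like protein (3.66 to 3.88 CPM in fl/fl on vehicle and 19.6 to 22.7 CPM elsewhere), the fibrinogen chains Fgg (52.1 to 52.8 and 110 to 116 CPM) and Fgb, and the inter-alpha-trypsin inhibitor chain Itih3. Their log2 fold changes were 2.51 ± 0.12, 1.13 ± 0.05, 1.08 ± 0.06 and 1.35 ± 0.08 (edgeR quasi-likelihood adjusted p = 1.4e-05, 1.4e-05, 2.9e-05 and 3.31e-05). Cp, which encodes ceruloplasmin, was the 1 that fell, by 0.37 ± 0.05 (adjusted p = 0.00551). Cp was named after its value was seen. For CKO on vehicle, 11 rose and 1 fell.

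The negative acute phase genes did not fall as a group in liver. Of 8, 3 rose and 1 fell in each of the 2 comparisons. Apoa1, the main protein of high-density lipoprotein, rose by 1.18 ± 0.05 (adjusted p = 1.02e-05), transferrin Trf by 0.61 ± 0.05 (adjusted p = 0.000359) and the fetuin Fetub by 1.39 ± 0.14 (adjusted p = 0.000615) for NOX_6_18 in fl/fl. Alb fell by 0.16 ± 0.03 (adjusted p = 0.0187), from 1932 and 2024 CPM to 1743 to 1782 CPM in the other 6 libraries. These p-values are from the quasi-likelihood test of edgeR.

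In WAT, 6 of the 19 tested positive genes rose and 5 fell for NOX_6_18 in fl/fl, with a median of 0.15, where 24.6% of all WAT genes were higher and 13.2% lower, with a median of 0.12. These shares and their dependence on scaling, given above, apply to each WAT list below. Lcn2, the lipocalin that binds bacterial siderophores, rose from 26.5 to 31.6 CPM to 109 to 126 CPM (log2 fold change 1.94 ± 0.10, edgeR adjusted p = 1.95e-06). The serpin Serpina3n fell from 147 to 155 CPM to 63.7 to 69.9 CPM (−1.12 ± 0.07, adjusted p = 6.22e-06), and Steap4 and Cfb fell by 0.58 and 0.41. Of the 7 tested negative genes 4 rose and 1 fell, with Alb up by 2.56 ± 0.13 (adjusted p = 1.68e-06). In CKO on vehicle 5 positive genes rose and 5 fell.

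**Figure D5:**
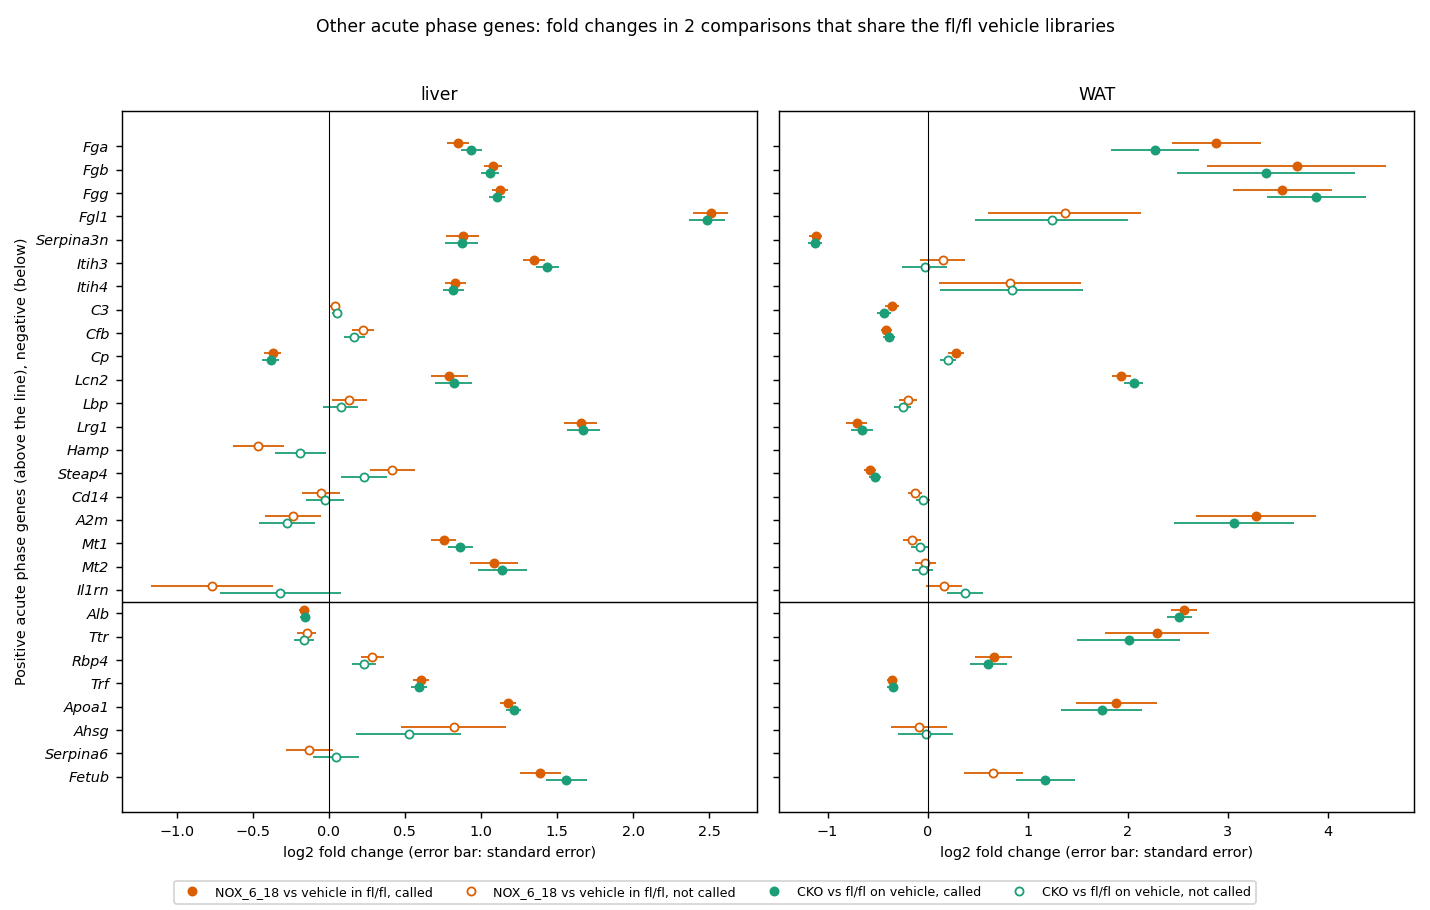
log2 fold change of 20 positive (above the line) and 8 negative acute phase genes (below) in liver (left) and WAT (right), for NOX_6_18 in fl/fl and for CKO on vehicle. Bars are standard errors and filled points are called genes. In liver 11 positive genes lie above 0 and called, Fgl1 highest at 2.51, while in WAT called genes lie on both sides of 0 and the split depends on the scaling given in the text.

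Of 15 inducing cytokines and receptors, 6 rose and 0 fell in liver for NOX_6_18 in fl/fl, with a median of 0.20. Beside them stand 3.78% of all liver genes higher and 1.74% lower. The receptor chain Lifr rose by 0.54 ± 0.04 (edgeR adjusted p = 0.000164), and the cytokines Il1a, Il1b and Osm by 0.70 ± 0.06, 0.72 ± 0.08 and 1.12 ± 0.19 (adjusted p = 0.000469, 0.00124 and 0.0122). Il1b stood at 16.4 to 17.7 CPM in fl/fl on vehicle and at 27.9 to 28.8 CPM elsewhere. Il6 and Tnf, named after their values were seen, were not called in liver, where both were highest in fl/fl on vehicle. There Il6 stood at 0.941 to 1.54 CPM in fl/fl on vehicle and at 0.175 to 0.539 CPM elsewhere. Tnf stood at 2.91 to 3.6 CPM and at 1.05 to 2.33 CPM. Their log2 fold changes for NOX_6_18 in fl/fl were −2.17 and −1.14. Il6 lay between 160 and 203 CPM in WAT. In WAT 3 of the 15 rose and 4 fell, beside 24.6% and 13.2% of all WAT genes. The 4 included Il1r1 (−0.90 ± 0.08, adjusted p = 5.34e-05), Tnfrsf1a (−0.64 ± 0.07, adjusted p = 0.000127) and Osmr (−0.48 ± 0.08, adjusted p = 0.00151).

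Of 17 signalling and transcription factors, 5 rose and 0 fell in liver for NOX_6_18 in fl/fl. Hnf4a, a hepatocyte nuclear factor, rose by 0.97 ± 0.08 (edgeR adjusted p = 0.000204) and the C/EBP factor Cebpd by 0.96 ± 0.10 (adjusted p = 0.000696). The NF-kappa-B inhibitor Nfkbia rose by 0.44 ± 0.06 and Cebpa by 0.43 ± 0.10 (adjusted p = 0.00336 and 0.0383). In WAT 1 of 16 rose and 6 fell, beside the same 24.6% and 13.2%, a split that depends on the scaling. The 6 included the glucocorticoid receptor gene Nr3c1 (−0.42 ± 0.06, adjusted p = 0.00092) and Jak1 (−0.37 ± 0.05, adjusted p = 0.000994). Of 12 receptors and clearance genes, 2 rose in liver and 0 fell. These were Cd163, the receptor for haptoglobin bound to hemoglobin, by 0.59 ± 0.07 (adjusted p = 0.00249), and the heme oxygenase Hmox1 by 0.25 ± 0.05 (adjusted p = 0.0313). In WAT 2 of the 12 rose, Cd163 among them (0.38 ± 0.06, adjusted p = 0.00179), and 5 fell, read against the same shares, Scarb1 the first by p (−0.74 ± 0.07, adjusted p = 0.000109).

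Cell type markers moved beside the liver results too. Of 12 neutrophil markers 10 rose for NOX_6_18 in fl/fl, and their sum was 31.6 to 31.9 CPM for fl/fl on vehicle against 133.6 to 143.8 CPM elsewhere. S100a9 stood at 0.971 to 1.39 and 32.2 to 36.7 CPM, and Ngp at 0.137 to 0.177 and 12.1 to 15.8 CPM. Of 14 hepatocyte markers 7 rose and 2 fell, with a median log2 fold change of 0.58 and a sum of 2907 to 3047 against 3206 to 3328 CPM. Tat, a tyrosine aminotransferase, rose by 2.19 ± 0.07 and Pck1, an enzyme of glucose synthesis, by 1.81 ± 0.05 (edgeR adjusted p = 2.9e-06 and 6.31e-07). Kupffer cell markers rose in 4 of 7, with sums of 1370 to 1393 against 1663 to 1710 CPM. The part of hepatocyte, neutrophil and Kupffer cell transcripts in the liver results was not tested.

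The genes most like a member were the 3 protein-coding genes outside the lists, averaging 5 CPM or more in the tissue, whose log2 CPM had the highest Pearson r with it over the 8 libraries. In liver these were Adamts1, Selenbp2 and Serpina1e for Saa2 (r of 1.00, 1.00 and 0.999), and Per1, Errfi1 and Ndrg1 for Orm1 (0.999, 0.998 and 0.998). For Hp they were Clec4g, Serpina1e and Selenbp2 (1.00, 1.00 and 0.999), though an exon of Clec4g overlaps another gene. For Crp they were Mrpl47, Trappc2 and Ttc4 (0.963, 0.961 and 0.943). In WAT, Lyz1, Tubb4b and Tnnt2 were most like Saa3 (0.998, 0.997 and 0.997) and Tagln2, Mdh2 and Anapc7 most like Hp (0.995, 0.993 and 0.991). Each r describes 8 libraries, of which the fl/fl vehicle pair stands apart.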

How the data were processed

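Total RNA was sequenced in 16 libraries. The deposited count tables hold whole-number read counts per gene, made by the authors with HISAT alignment to GRCm38 and featureCounts 1.5.0, and DESeq 1.8.3 is also named, per the submitters' processing notes. For annotation release, strand setting and reads that fit several genes, the sources used here give nothing. Ensembl identifiers were matched to symbols through GENCODE, with 55154 of 55421 genes (99.5%) matched. No 2 libraries held identical counts.

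In each tissue the 8 libraries were fitted together with 1 coefficient per group and no covariate (edgeR 4.0.16 quasi-likelihood test in R 4.3.3, TMM factors, filterByExpr, Benjamini-Hochberg adjusted p under 0.05 over all genes tested). Genes tested numbered 25871 (WAT), 19515 (liver) and 26751 (both tissues). Log2 CPM used a prior count of 2. The steps were tested on simulated data. The members and lists were chosen with earlier results of these data known. Named from each list were the called genes of smallest adjusted p, at most 4, or at most 2 as values where none was called. Alternatives covered scaling, filters, DESeq2 1.42.0, limma-voom (limma 3.58.1), a replicate block, summed near copies, the libraries fitted, and each library left out. Removal of the GC and length trend with recentring was chosen after seeing the data. Transcripts and promoters were compared with Biopython 1.88, and intervals came from scipy 1.17.1. Library totals set the counting precision: 3 counts, the most that a count of 0 allows at 95%, are 0.0499 to 0.068 CPM in WAT. Promoter entries were matched for 8 of the 10 genes.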

Additional observations from a re-analysis of the deposited data

Results flagged for a closer look

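For 10 gene and tissue pairs the response to NOX_6_18 differed between CKO and fl/fl by the interaction term of the edgeR quasi-likelihood fit. Each difference uses the fl/fl vehicle libraries and is given on the log2 scale as CKO minus fl/fl. In liver it was −4.20 for Saa1, −5.39 for Saa2, −1.04 for Saa4, −1.96 for Orm1, −2.79 for Orm2, −1.45 for Hp and −1.10 for Hpx. In WAT it was −5.71 for Saa2, from 1 and 0 counts in the fl/fl vehicle libraries, −1.01 for Saa3 and −2.87 for Hpx. The Saa2 value in WAT ran from −8.26 to −4.77 with 1 library left out in turn. By limma-voom it was −5.36 and not called (adjusted p = 0.0766). WAT and liver differed in the effect of NOX_6_18 in fl/fl for 6 genes in the fit over both tissues. As WAT minus liver the difference was −2.68 for Saa1, 2.45 for Saa3, −1.54 for Orm1, −1.70 for Hp, 1.93 for Hpx and 1.35 for Crp. The 10 genes were chosen with these data known, so the values describe these libraries.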

How the results depend on the processing

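The count of called members kept within 1.5 times of its value in 118 of 121 alternatives and in 90 of 96 fits with 1 library left out. The exceptions all concern NOX_6_18 in fl/fl in WAT, where 5 of 9 became 3 with no filter, 3 by limma-voom and 3 with only the groups compared, and 3 to 5 with a library left out. The cause was not tested. With a library left out, the other counts ran from 4 to 6 (CKO on vehicle, WAT), 3 to 4 (interaction, WAT), 7 to 8 (NOX_6_18 in fl/fl, liver), 7 to 9 (CKO on vehicle, liver), 5 to 7 (interaction, liver) and 5 to 6 (between tissues). Both comparisons without fl/fl vehicle gave 0 in each tissue under every alternative run. Among called values 1 direction reversed: Saa3 in WAT for NOX_6_18 in fl/fl was −0.011 after removal of the GC and length trend with recentring. Under that alternative Orm1, 0.42 and not called there, became −1.02 and called. Saa1, Saa2, Saa4, Orm1, Orm2, Hp and Hpx in liver were called against fl/fl on vehicle under every alternative run.

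Replicate numbers did not pair the libraries: the correlation of deviations ran from −0.10 to 0.17 in WAT and from −0.10 to 0.08 in liver. With a replicate block the counts were 4 and 4 of 9 in WAT and 8 and 9 of 10 in liver for NOX_6_18 in fl/fl and for CKO on vehicle, 3 in WAT and 6 in liver for the interaction, and 5 between tissues.

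Over all genes, removal of the trend with recentring moved the calls in WAT from 9784 to 14683 for NOX_6_18 in fl/fl, from 9529 to 14698 for CKO on vehicle and from 6547 to 11887 for the interaction, and between tissues from 3936 to 7377. Called genes with a higher interaction made up 26.53% in WAT as analysed, 12.51% with library totals only and 66.74% with the trend removed. Between tissues these shares were 51.09%, 71.93% and 21.92%. With library totals only the median of WAT genes moved by 0.17 in both comparisons against fl/fl on vehicle. DESeq2 gave 46 instead of 4 for NOX_6_18 in CKO and 46 instead of 9 for CKO on NOX_6_18 in WAT, 34 and 42 instead of 7 and 7 in liver, 829 instead of 478 for the liver interaction and 6054 between tissues, where limma-voom gave 6518. With no filter the liver counts of 7 and 7 became 15 and 20, and with only the groups compared the second became 24. In WAT the count of 4 became 2 with the block, 10 with the trend removed and 9 with only the groups compared, and the count of 9 became 5 with the block. With a library left out, the counts ran from 6865 to 9439, 6972 to 8919, 3 to 13, 5 to 23 and 4581 to 6790 in WAT (NOX_6_18 in fl/fl, CKO on vehicle, NOX_6_18 in CKO, CKO on NOX_6_18, interaction). In liver they ran from 615 to 931, 612 to 1012, 8 to 28, 12 to 22 and 288 to 344, and between tissues from 2716 to 3884. Few counts limit Saa2, Saa4, Orm2 and Apcs in WAT.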

Other observations

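In WAT, Gimap5, Uvssa and Terf1 had the levels most like Orm1 over the 8 libraries (Pearson r of 0.951, 0.931 and 0.930), and Smarca1, Nolc1 and Slc19a2 those most like Crp (0.976, 0.974 and 0.968). These r values describe 8 libraries and have no test. Orm3, the near copy of Orm1 and Orm2, had 2 and 9 counts in WAT of fl/fl on vehicle and 9 to 33 counts in the other 6 libraries. In liver it had 0 to 27 counts. Orm1 held 94.2 and 89.7% of the counts of Orm1, Orm2 and Orm3 in liver of fl/fl on vehicle and 81.8 to 90.2% in the other 6 libraries, so these groups overlapped.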
